A study of Hydra vulgaris with 22 samples.

Results

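The transcripts described here were at least 3 times as high in the unsorted body column of Hydra as in the mean of any sorted stem cell group. They were 161 of 44306 transcript stems, a stem being the part of a contig identifier before its isoform number, with the counts of its contigs summed. A stem was a member when both unsorted libraries held it at 20 counts per 1000000 counts of the library (CPM) or more, and when the lower of these values was at least 3 times the highest mean of the 6 sorted groups plus 0.5 CPM. Of the 3911 stems that reached the minimum in both unsorted libraries, 4.12% were members. Because the contrast of unsorted with sorted libraries chose the members, that contrast is given as a description without a test.

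Hydra vulgaris is a freshwater polyp with a body wall of an epidermis outside and a gastrodermis inside, and the epithelial stem cells of each layer renew it. A further lineage, the interstitial stem cells, gives rise to nerve cells, stinging cells, gland cells and germ cells. The body column therefore holds many differentiated cells beside its stem cells, gland cells among the gastrodermal epithelium and stinging cell precursors among the epidermal epithelium. None of the 61501 contig identifiers could be paired with a gene name, so no member is given a name, a function or a cell type, and the sorted populations were not checked against marker genes.

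Polyadenylated RNA was sequenced from the central part of the body column of polyps of strain AEP, cut without its apical and basal regions. All polyps carried an eGFP transgene, and all had been without food for some days. Epidermal (eESC) and gastrodermal (gESC) epithelial stem cells came from actin::eGFP polyps and were sorted for high eGFP after 3 days (eESC_3d, n = 3; gESC_3d, n = 3) or 10 days (eESC_10d, n = 4; gESC_10d, n = 3). Interstitial stem cells came from cnnos1::eGFP polyps and were sorted by a high gate after 2, 3, 3 and 5 days for replicates A to D (ISC_high, n = 4) or by a medium gate after 5, 3 and 3 days for replicates A to C (ISC_medium, n = 3). The unsorted libraries were 1 of an actin::eGFP line and 1 of a cnnos1::eGFP line, both at 10 days and never passed through a sorter. The label of the latter names gESC as its eGFP cells, so it is called here by its transgene only. Sorted groups are populations as gated by eGFP, and the labels do not say whether replicates came from separate cultures, so p-values measure the spread between these libraries.

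Library totals ran from 13971099 to 31723680 counts. The eESC_10d, gESC_10d and ISC_high libraries and gESC_3d C were deeper, with 25195891 counts or more each, and the other sorted libraries held at most 20327106. The comparison of starvation times in epidermal cells and that of the interstitial gates therefore cannot be told apart from depth class. Replicate C of eESC_10d stood apart from its group. A list of 100 stems characteristic of gESC_3d, with no members in it, took 0.697% of its counts against 0.0391 to 0.0449% in replicates A, B and D and 6.17 to 7.86% in gESC_10d. Results that rest on eESC_10d are therefore given with and without this library, and the part of gastrodermal RNA in them was not tested.

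The member ratios, unsorted level over highest sorted level, ran from 3.01 to 26.2 with a median of 6.87, and 32 members reached 10. The median ratio of the 3911 eligible stems was 0.442, and 89.6% of them lay below 1. Just inside the limit were c17449_g1, c10196_g1 and c25207_g1 at 3.02, 3.02 and 3.01. Just outside were c16461_g1, c25684_g1 and c9182_g1 at 2.97, 2.95 and 2.94, so the limit cuts through a continuous range. Members took 6.02% of the counts in the unsorted actin library and 6.47% in the unsorted cnnos1 library. In sorted groups they took 0.169 ± 0.0359% (SD, n = 3) in eESC_3d, 0.506 ± 0.173% (n = 3) in gESC_3d, 0.615 ± 0.296% (n = 3) in gESC_10d, 0.128 ± 0.0129% (n = 3) in ISC_medium and 0.0294 ± 0.0120% (n = 4) in ISC_high. In eESC_10d the share was 0.328 ± 0.181% (n = 4), and 0.239 ± 0.0285% (n = 3) without replicate C. In these bulk samples, fewer cells of a type and less RNA per cell cannot be told apart.

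**Figure D1:**
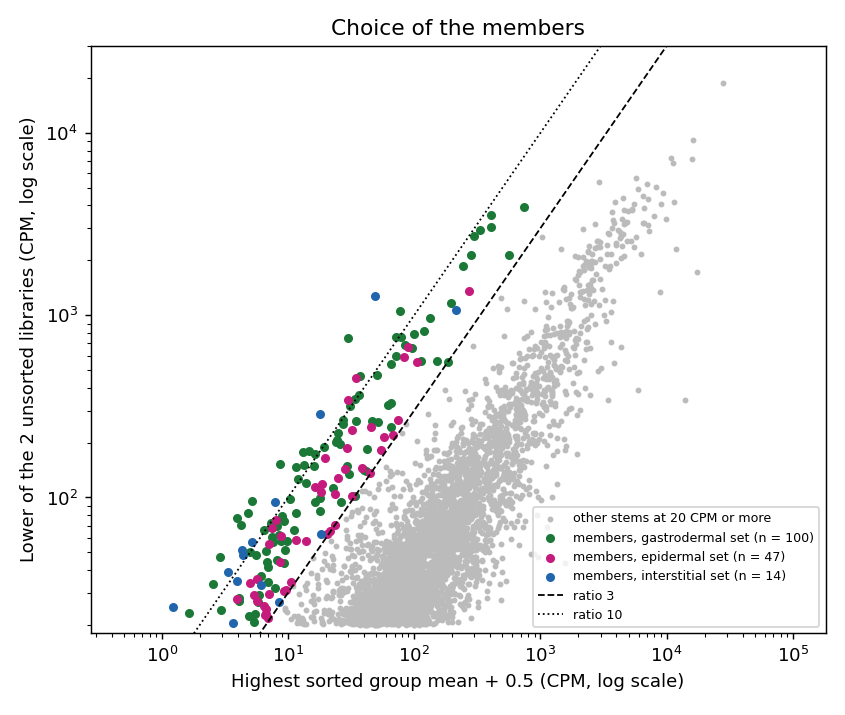
Each point is 1 of the 3911 stems with at least 20 CPM in both unsorted libraries, placed by its highest sorted group mean plus 0.5 CPM (x axis, log scale) and its lower unsorted CPM (y axis, log scale); the lines mark ratios of 3 and 10. The 161 coloured members lie above the line of ratio 3, and members near it lie beside other stems just below it.

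The choice carried over between the unsorted lines. Of 183 stems that passed the rule with the actin library alone, 169 (92.3%) also reached a ratio of 3 in the cnnos1 library, with a median of 7.24. Of 187 stems chosen with the cnnos1 library alone, 174 (93.0%) reached it in the actin library, with a median of 6.92. The sorted libraries were the same in both readings, so only the unsorted side of the ratio was new.

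Absence from sorted cells was never complete. No member had 0 counts in all 20 sorted libraries, and 113 members had a count in every one of them. The level left in sorted cells was lowest in ISC_high, where the median of the members' group means was 0.551 CPM and 103 members lay below 1 CPM. It was 2.22 CPM in ISC_medium, 4.30 in eESC_3d, 6.54 in eESC_10d, 6.88 in gESC_3d and 7.17 in gESC_10d. Members are grouped below by the sorted group in which their median CPM was highest. A gESC group was highest for 100 members (the gastrodermal set), an eESC group for 47 (the epidermal set) and ISC_medium for 14 (the interstitial set). ISC_high was highest for none. These names say only where the remaining counts were highest, and a direction that this grouping fixes is no result.

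**Figure D2:**
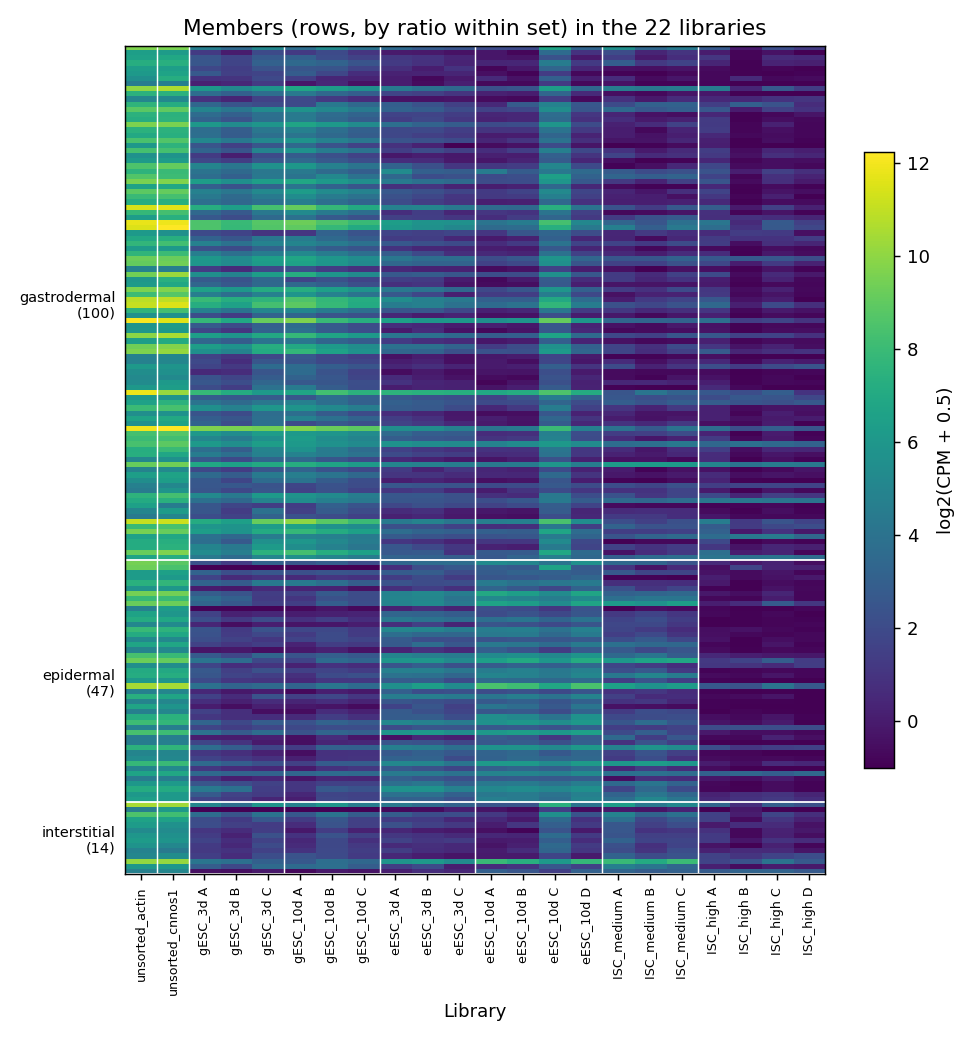
Each row is 1 of the 161 members and each column 1 of the 22 libraries; colour gives log2(CPM + 0.5). The unsorted libraries are bright throughout, the gastrodermal set is next brightest in gESC and in eESC_10d C, the epidermal set in eESC and ISC_medium, and ISC_high is darkest.

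The gastrodermal set held most of the abundant members. Its shares of counts were 4.78 and 5.34% in the unsorted actin and cnnos1 libraries, against 0.895 and 0.810% for the epidermal set and 0.347 and 0.323% for the interstitial set. The most abundant member, c24110_g1, stood at 3925 and 4769 CPM in the unsorted actin and cnnos1 libraries. It stood at 809, 749 and 665 CPM in gESC_3d A to C and at 839.8, 596 and 471 CPM in gESC_10d A to C. In eESC_3d A to C it was at 44.3, 43.7 and 26.2 CPM, and in eESC_10d A to D at 16.7, 19.6, 256 and 26.9 CPM. All 6 gastrodermal libraries lay above all 7 epidermal ones, and eESC_10d C was the highest of the latter. In the interstitial gates c24110_g1 stayed between 3.99 and 15.6 CPM.

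Next in abundance were c25208_g1, with 2917 and 4675 CPM in the unsorted actin and cnnos1 libraries, and c25552_g1, with 4361 and 3065 CPM. The line with more of the transcript differed between them. In gESC_10d A to C, c25208_g1 was at 483, 220.3 and 130.3 CPM and c25552_g1 at 819.9, 249.6 and 154 CPM. Both were highest in replicate A and lowest in replicate C. c17018_g1 followed the same order at 538, 219 and 129 CPM. c25206_g2 did so too, at 600.4, 370.1 and 243 CPM.

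This order was shared across the gastrodermal set. Replicate A was the highest gESC_10d library for 86 of its 100 members, and for 33.7% of the 3750 eligible stems that were not members. In gESC_3d, replicate C was highest for 87 of the 100, against 46.4% of the other stems. In the epidermal set, replicate A was the highest gESC_3d library for 37 of 47 members (78.7%), against 24.1% of the other stems. Replicate B was the highest gESC_10d library for 33 of the 47 (70.2%), near the 64.4% of the other stems. The highest library was thus largely shared inside the gastrodermal set in both groups, and inside the epidermal set in gESC_3d. These counts are descriptions, since members of a set need not be independent of each other.

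In replicate C of eESC_10d the sets differed in direction. It was the highest of the 4 eESC_10d libraries for 99 of 100 gastrodermal members and 12 of 14 interstitial members, and the lowest for 40 of 47 epidermal members. Among the eligible stems that were not members it was highest for 13.2% and lowest for 49.3%. The gastrodermal set took 0.464% of its counts, against 0.0475 to 0.0718% in replicates A, B and D and 0.334 to 0.920% in gESC_10d. The gastrodermal set had 0.665 counts per count of that list in eESC_10d C, against 0.0541 to 0.117 in gESC_10d and 1.40 and 1.55 in the unsorted libraries. The same ratio was 1.06, 1.42 and 1.62 in eESC_10d A, B and D and 0.910 to 3.68 in eESC_3d, so replicate C was the lowest epidermal library. The list was chosen on the 3-day libraries, and the part that RNA of other cells has in these values was not tested.

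**Figure D3:**
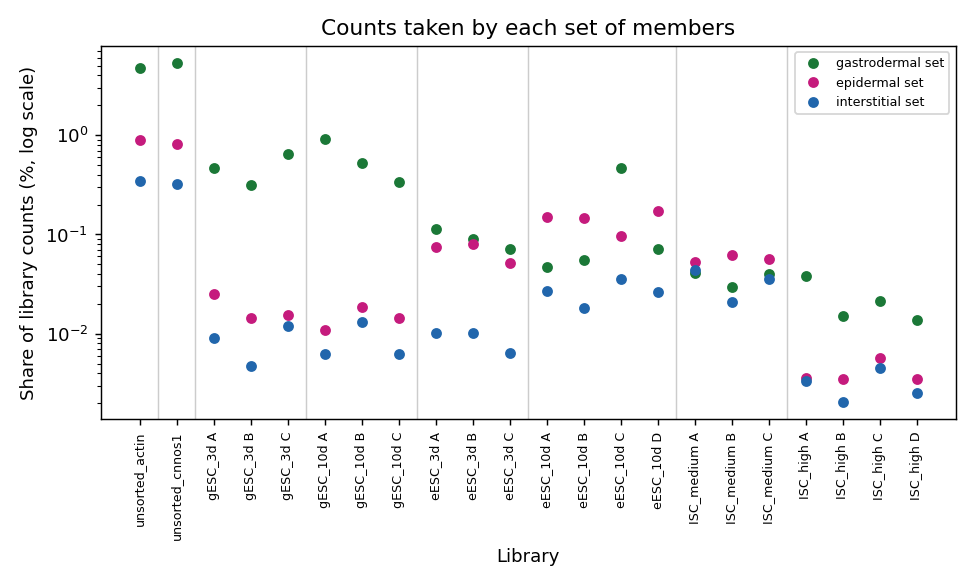
Points give the share of a library's counts (%, log scale) taken by the gastrodermal, epidermal and interstitial sets in each of the 22 libraries. The gastrodermal set takes 4.78 and 5.34% in the unsorted libraries and at most 0.920% in a sorted one, and eESC_10d C (0.464%) lies with the gESC libraries.

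Relative to the unsorted mean, the median gastrodermal-set member kept 5.76 to 16.0% of its level in gESC_10d, 4.68 to 11.5% in gESC_3d and 0.951 to 1.79% in eESC_3d. It kept 0.505 to 1.06% in eESC_10d A, B and D and 8.45% in C. The median epidermal-set member kept 12.0 to 21.7% in eESC_10d, 7.70 to 11.8% in eESC_3d, 3.56 to 6.01% in ISC_medium and 0.0593 to 0.212% in ISC_high. The highest of these medians in any sorted library was 21.7%, in eESC_10d D. The rule capped each sorted group mean relative to the unsorted level, so low percentages follow from the choice of members and are no result.

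**Figure D4:**
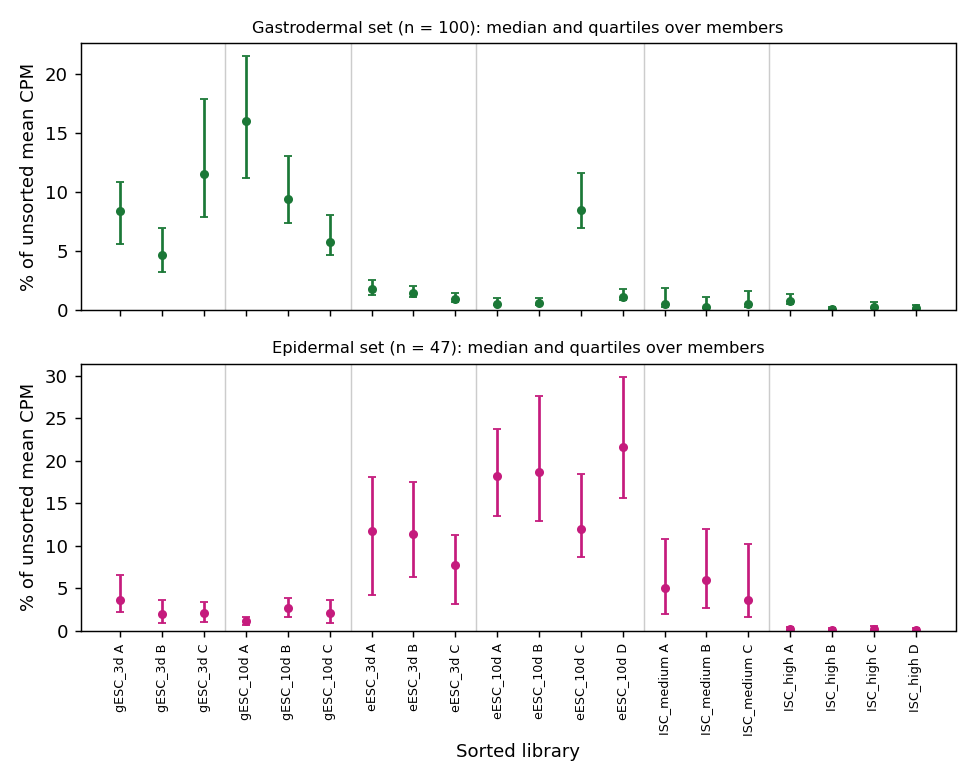
For each of the 20 sorted libraries, the point is the median over members of the CPM as a percentage of the member's unsorted mean, and the bar spans the quartiles over members, for the gastrodermal set (top) and the epidermal set (bottom). The gastrodermal set peaks at 16.0% in gESC_10d A and the epidermal set at 21.7% in eESC_10d D, while both lie under 1% in all 4 ISC_high libraries.

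Contrasts between sorted groups were not the contrast of the rule and were tested with edgeR's quasi-likelihood test over 18288 stems, with Benjamini-Hochberg adjustment. All 161 members passed the filter. Between the epithelial layers at 3 days, 117 members (72.7%) were called at an adjusted p under 0.05, 40 higher and 77 lower in eESC_3d. Over all stems tested 49.6% were called (24.7% higher and 24.9% lower), so the members were called more often than stems at large. Without eESC_3d C this excess was small, with 74 members called (46.0%), 39 higher and 35 lower, against 43.4% of all stems. Without gESC_3d C it was 78 members (48.4%), against 42.8%. At 10 days 115 members (71.4%) were called, 47 higher and 68 lower in eESC_10d, against 51.9% of all stems (28% higher and 24% lower). Without eESC_10d C these were 146 members, 46 higher and 100 lower, against 50.5% of all stems (27% and 23.5%). In other settings the members were called less often than stems at large. Without gESC_10d A 63 were called (39.1%), 47 higher and 16 lower, against 45.7% of all stems. A fit of these 2 groups alone called 61 (38.1%), 48 higher and 13 lower, against 60.9% of all stems. The number called higher in eESC_10d was 46 to 48 in these fits, and the number called lower in eESC_10d was the part that varied. The median log2 fold change of the members, eESC over gESC, was -1.98 at 3 days and -1.38 at 10 days, or -2.77 without that library, and that of all stems was 0.00 at 3 days and 0.04 at 10 days.

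The layers were read in separate libraries at the 2 times. Of the 117 members called at 3 days, 104 (88.9%) were called in the same direction at 10 days, and 0 in the opposite direction. Over all stems 87.6% of the 3-day calls were repeated. Without eESC_10d C, 116 of the 117 were called in the same direction.

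The largest differences toward gESC included c24110_g1, described above. Its log2 fold change, eESC over gESC, was -4.47 ± 0.88 (SE; adjusted p = 0.000308) at 3 days and -3.15 ± 0.74 (adjusted p = 0.00132) at 10 days, or -5.11 ± 0.45 without eESC_10d C. c17957_g1 was at 4.25, 4.11 and 2.41 CPM in eESC_3d A to C and at 59.6, 55.0 and 79.0 CPM in gESC_3d A to C. It was at 1.14, 1.22, 18.2 and 2.13 CPM in eESC_10d A to D and at 94.4, 51.01 and 41.9 CPM in gESC_10d A to C. The groups did not overlap at either time, and the log2 fold change at 10 days was -3.63 ± 0.73 (adjusted p = 0.000318), or -5.57 ± 0.48 without replicate C. DESeq2 did not call c17957_g1 at either time.

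The gastrodermal-set stem c4738_g1 stood at 54.4, 27.3 and 18.1 CPM in gESC_10d A to C and at 0.834, 1.54, 15.4 and 1.21 CPM in eESC_10d A to D. Replicate C came within reach of the lowest gastrodermal library, and the log2 fold change was -2.97 ± 0.78 (adjusted p = 0.00318), or -5.00 ± 0.56 without it and -2.32 without gESC_10d A. For c15711_g1 at 3 days the values were 13.2, 6.08 and 49.7 CPM in gESC_3d A to C and 1.63, 1.30 and 0.730 CPM in eESC_3d A to C, with a log2 fold change of -4.31 ± 1.37 (adjusted p = 0.0135). Replicate C of gESC_3d was several times the other gESC_3d libraries, and the call was lost without it, at -3.24, or without eESC_3d C.

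In the epidermal set, c9490_g1 had 0 counts in all 6 gESC libraries. It stood at 621 and 343 CPM in the unsorted actin and cnnos1 libraries, at 1.22, 4.01 and 5.78 CPM in eESC_3d A to C, and at 7.13, 6.14, 99.4 and 5.97 CPM in eESC_10d A to D. It was at least 80.5-fold higher in eESC_3d than in gESC_3d (adjusted p = 0.00671), taking 3 counts over the group as the floor. At 10 days it was at least 919-fold higher (adjusted p = 0.000155), or at least 198-fold without eESC_10d C. It is the only epidermal-set member for which eESC_10d C was the highest library of its group. ISC_high A to D held it at 0.238, 2.82, 0.749 and 0.658 CPM, at least 35.3-fold above gESC_10d (adjusted p = 0.0174), a call lost without ISC_high B.

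One further member, c27838_g1 of the interstitial set, also had 0 counts in all gESC libraries. It was rare everywhere in sorted cells, with at most 2.25 CPM, in eESC_10d C. At 10 days it was at least 22.2-fold higher in eESC than in gESC (adjusted p = 0.00599), or at least 6.39-fold without eESC_10d C, where it no longer passed the filter. Floors and intervals cover counting error only.

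c20630_g1 stood at 17.4, 12.8, 5.88 and 17.2 CPM in eESC_10d A to D, where C was the lowest, and at 0.402, 0.321 and 0.158 CPM in gESC_10d A to C. Its log2 fold change was 5.33 ± 0.50 (adjusted p = 5.08e-08). c11195_g1 was at 23.5, 24.7 and 21.3 CPM in eESC_3d A to C and at 2.41, 1.03 and 4.67 CPM in gESC_3d A to C, a log2 fold change of 2.96 ± 0.46 (adjusted p = 2.67e-05). Both pairs of groups were clear of each other. At 3 days c22885_g1 had 48 counts in eESC_3d and 3 in gESC_3d, a fold of 15.6 with an exact interval on the ratio of 6.29 to 98.0. One epidermal-set member went the other way at 3 days, c19847_g1, with 4.16 ± 0.467 CPM in eESC_3d and 12.2 ± 7.56 CPM in gESC_3d (adjusted p = 0.00642). It was named after its values were seen.

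**Figure D5:**
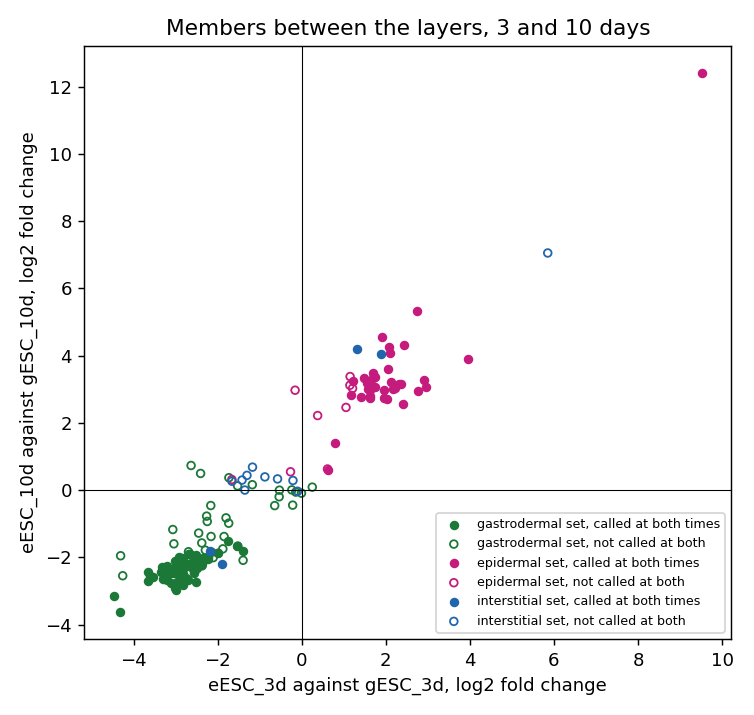
Each point is 1 of the 161 members, with the log2 fold change eESC over gESC at 3 days (x axis) and at 10 days (y axis); filled points were called at both times in the same direction. The filled points fall in the lower left (64) and upper right (40), and the point at the far upper right is c9490_g1, whose fitted value has 0 counts in gESC behind it.

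Against the high interstitial gate, members were higher in gESC almost throughout, whereas the number called in eESC_10d depended on replicate C. In gESC_10d against ISC_high, 142 members were called higher and 2 lower, while 64.2% of all stems were called (36% higher and 28.2% lower). In eESC_10d against ISC_high, 142 were called higher and 0 lower, against 70.3% of all stems (40.8% higher and 29.5% lower). Without eESC_10d C these were 94 higher and 8 lower (63.75%), against 67.3% of all stems (38% and 29.3%). Leaving out eESC_10d C took calls in the gastrodermal set from 86 of 100 higher to 44 higher and 7 lower. All 47 epidermal-set members were called higher in eESC_10d in both fits. That set was chosen by its level in eESC, with the highest median in eESC_10d for 40 members, so its direction is no result. The groups also differed in days without food, 10 against 2 to 5. With eESC_3d in place of eESC_10d, 105 members were called higher than in ISC_high and 4 lower (67.7%, against 67.3% of all stems). With gESC_3d in place of gESC_10d these were 141 and 2 (88.8%, against 65.5%). Against the medium gate the pattern was weaker. In eESC_3d against ISC_medium 44 members were called higher and 12 lower (34.8%, against 59.7% of all stems), and in gESC_3d against ISC_medium 81 and 23 (64.6%, against 60.4%).

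c18903_g1 stood at 68.9, 59.4 and 41.2 CPM in gESC_10d A to C and at 0.754, 0, 0.510 and 0.0387 CPM in ISC_high A to D. Its log2 fold change was 7.64 ± 1.04 (adjusted p = 3.06e-06), or 8.37 without ISC_high A. c18939_g1, at 371, 218 and 145 CPM in gESC_10d A to C, was at 5.48, 0.285, 0.545 and 0 CPM in ISC_high A to D. ISC_high A was highest for both, as it was for 79 of the 100 gastrodermal-set members and for 45.3% of eligible stems that were not members. The log2 fold change of c18939_g1 was 7.55 ± 1.23 (adjusted p = 2.64e-05), or 9.94 without ISC_high A, and that of c4738_g1 was 7.49 ± 1.03, or 8.76 without it and 6.84 without gESC_10d A.

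Among epidermal-set members, c16391_g1 was at 34.5, 42.6, 32.9 and 46.8 CPM in eESC_10d A to D and between 0.0357 and 0.170 CPM in ISC_high. Its log2 fold change was 8.84 ± 0.82 (adjusted p = 1.61e-08), and 9.50 without ISC_high C. c8944_g1, even across eESC_10d A to D at 11.3, 11.1, 10.5 and 11.4 CPM, had 2 counts over the 4 ISC_high libraries, a fold of 477.8 with an interval of 165.9 to 4966. c20630_g1 had 1 count there, all of it in ISC_high A, and the interval of its ratio was 260.1 to 57362. With the 3-day epithelial libraries set against ISC_medium, c8944_g1 was no longer called, at a log2 fold change of 0.78.

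The exceptions in gESC_10d against ISC_high were c9490_g1, above, and c12424_g1. In ISC_high A to D c12424_g1 stood at 6.59, 9.13, 9.22 and 6.23 CPM, in ISC_medium A to C at 9.25, 6.74 and 8.11 CPM, and in gESC_10d A to C at 0.101, 0.449 and 0.315 CPM. It was thus about as high in the high gate as in the medium gate, and its log2 fold change in gESC_10d against ISC_high was -4.53 ± 0.46 (adjusted p = 7.22e-08).

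Between the interstitial gates, most epidermal-set members lay toward the medium gate. In ISC_medium against ISC_high, 67 members were called higher and 1 lower, against 34.5% of all stems (15.1% higher and 19.4% lower). The median log2 fold change was 1.52 over members and -0.04 over all stems. The epidermal set supplied 42 of the 67, out of 47 members, and the interstitial set 11 of 14. The gastrodermal set supplied 14 of 100 (14%), near the 15.1% of all stems called higher. The interstitial set was chosen by its level in ISC_medium, so its direction was fixed. Scaling by library size alone moved the median over all stems to -0.43 and that over members to 1.113. It called 61 members higher and 2 lower (39.1%), against 41.2% of all stems (9.75% higher and 31.5% lower). In the 3-day libraries alone, B and C of each gate, 48 members were called (29.8%), all higher in the medium gate, against 24.2% of all stems (11.1% higher). The gates also differed in depth class, and with a term for it 39 members were called (24.2%), all higher, against 8.82% of all stems (4.21% higher). Depth class varied within a group only through gESC_3d C, so this term cannot tell gate from depth.

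c17316_g2 stood at 19.1, 32.5 and 21.8 CPM in ISC_medium A to C and at 0.159, 0.107, 0.340 and 0.0774 CPM in ISC_high A to D. Its log2 fold change was 7.47 ± 0.50 (adjusted p = 4.40e-09), or 8.08 without ISC_high C. In eESC_10d A to D it was at 30.6, 27.8, 19.7 and 32.8 CPM, close to ISC_medium, and in gESC_10d at 1.27 to 4.13 CPM. c3471_g1 had the same shape, with 11.1, 17.1 and 8.64 CPM in ISC_medium A to C, at most 0.170 CPM in ISC_high and 15.4 to 23.8 CPM in eESC_10d, and a log2 fold change between the gates of 7.504 ± 0.503, or 8.17 without ISC_high C. c37337_g1 had 154 counts in ISC_medium and 1 in ISC_high, in replicate C, so its ratio lay between 51.2 and 11521.

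The reverse held for c27801_g1 only, with 2 counts in ISC_medium and 38 in ISC_high. Its log2 fold change was -2.82 ± 0.78 (adjusted p = 0.00840), and the call was lost without ISC_medium C, in the 3-day libraries alone and with a term for depth class. The stems c24110_g1 and c25206_g2, abundant in the gastrodermal set, were at 15.6, 6.25 and 15.6 CPM and at 9.54, 5.12 and 14.5 CPM in ISC_medium A to C, a small remainder of their unsorted levels.

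Few members differed between starvation times. In eESC_10d against eESC_3d, 14 were called, all higher at 10 days, 13 of them in the epidermal set, against 12.3% of all stems (6.52% higher and 5.76% lower). The share of members called was 8.70%. The epidermal set was grouped by its level in eESC, with the highest median in eESC_10d for 40 members. Its direction here was therefore largely fixed and is no result. Without eESC_10d C, 25 were called, 14 higher and 11 lower, against 9.61% of all stems (5.16% and 4.46%), and the 11 lower ones were all in the gastrodermal set. The median log2 fold change of the members was 0.74 with that library and -0.55 without it, so even its sign rests on eESC_10d C. Leaving out any other library of the comparison left 5 to 8 calls (3.11 to 4.97% of members, against 3.38 to 11.7% of all stems). With the depth class term, which rests on gESC_3d C alone, 0 members were called.

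c20_g1 stood at 45.5, 35.8, 16.7 and 53.2 CPM in eESC_10d A to D and at 6.59, 6.87 and 3.87 CPM in eESC_3d A to C. Its log2 fold change was 2.51 ± 0.38 (adjusted p = 0.000997), and 2.76 ± 0.32 without replicate C, which was the lowest 10-day library yet above every 3-day one. c12424_g1 was at 7.93, 5.36, 2.25 and 8.01 CPM against 0.583, 1.14 and 0.842 CPM, a log2 fold change of 2.61 ± 0.42 (adjusted p = 0.00146). c15574_g1, at 6.37, 5.08, 1.71 and 6.27 CPM against 0.291, 0.866 and 0.617 CPM, had a log2 fold change of 2.87 ± 0.69 (adjusted p = 0.0128), and its call was lost without eESC_3d A or C.

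In gastrodermal cells 0 members were called between 10 and 3 days, while 0.0656% of all stems were (0.00547% higher and 0.0601% lower). At an unadjusted p under 0.05 in edgeR there were 13 members, but the share of all stems under it was not counted, so this is no result. DESeq2 called 1 member (0.621%), against 2.96% of all stems. Without gESC_3d C, edgeR called 3 (1.86%), all lower at 10 days, against 5.22% of all stems. The interaction of layer and time, which tests whether the epidermal difference exceeded the gastrodermal one, called 0 members, against 0.082% of all stems. For 30 members its unadjusted p was under 0.05, and the share of all stems there was likewise not counted. Without eESC_10d C the interaction called c12424_g1 (log2 interaction 3.14, adjusted p = 0.0227) and c20_g1 (2.88, adjusted p = 0.00922), against 0.15% of all stems.

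Of the 10 members of highest ratio, 8 had eESC_10d C as their highest sorted library and 2, c37752_g1 and c38584_g1, had gESC_10d A. For 4 of the 8 the next highest was ISC_medium A. c7931_g1, with a ratio of 26.2, stood at 1455 and 1270 CPM in the unsorted actin and cnnos1 libraries. It stood at 81.5, 19.3 and 34.4 CPM in ISC_medium A to C, at 5.16, 5.04, 165 and 16.4 CPM in eESC_10d A to D, and at 26.7, 58.9 and 23.4 CPM in gESC_10d A to C. This stem, with its highest level in eESC_10d C and its next in ISC_medium A, is 1 of these 4. c35343_g1, with a ratio of 24.96, was at 798 and 747 CPM unsorted, 102 CPM in eESC_10d C and 45.2, 10.0 and 19.1 CPM in ISC_medium. c1072_g1, at 365 and 286 CPM unsorted, was likewise highest in eESC_10d C (46.8 CPM) and ISC_medium A (28.8 CPM), and c30761_g1, at 85.2 and 76.8 CPM unsorted, in the same libraries at 12.0 and 3.74 CPM. These 4 stems were placed in different sets. For c13094_g1 and c10199_g1 the next highest was gESC_10d A, at 10.8 and 5.33 CPM. Of the 10 members of highest ratio, 7 were in the gastrodermal set, 3 in the interstitial set and 0 in the epidermal set.

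The most abundant interstitial-set member besides c7931_g1 was c16389_g1. It was at 1069 and 1119 CPM unsorted, 243, 136 and 258 CPM in ISC_medium A to C, and 246, 163, 71.2 and 222 CPM in eESC_10d A to D, with only 2.78 to 16.1 CPM in ISC_high. Its levels in these groups overlapped, so its place in the interstitial set is not firm. c18043_g1, the most abundant epidermal-set member, was at 1394 and 1364 CPM unsorted, at 340.2, 277, 119 and 341 CPM in eESC_10d A to D and at 91.9, 52.3 and 76.7 CPM in ISC_medium A to C.

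The unsorted libraries also differed from each other, with 1 library per line and so no replicate. The ratio of the actin to the cnnos1 library had a median of 0.900 over members and 1.07 over the other eligible stems, and 68.9% of members lay below 1 against 33.5% of the others. By set the median was 0.810 in the gastrodermal set, 0.975 in the epidermal set and 1.09 in the interstitial set. Ratios beyond 2-fold were found for 10 members (6.21%) and 1.23% of the other stems. c39650_g1 was at 90.5 CPM in the actin and 23.0 CPM in the cnnos1 library, a ratio of 3.93 with a 95% exact interval of 3.48 to 4.45. c25356_g1, at 3655 and 1162 CPM, had a ratio of 3.15. In the other direction c7720_g1 was at 46.9 and 151 CPM, a ratio of 0.312 with an interval of 0.286 to 0.339, and c3198_g1 at 66.2 and 187 CPM, a ratio of 0.353. Line and library cannot be told apart here.

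Members had fewer contigs per stem than other stems. A single contig made up 125 members (77.6%), against 50.8% of the other eligible stems, and the most contigs in a member was 5 against 17. Of the 36 members with several contigs, 29 had the same leading contig in unsorted and sorted libraries and 7 had another. In c19211_g1 the second contig made up 87.1% of the stem's unsorted counts and 1.14% of its sorted counts. That contig was at 478 and 592 CPM in the unsorted actin and cnnos1 libraries and between 0.0382 and 2.23 CPM in the means of the sorted groups. The first contig was at 79.96 and 64.99 CPM unsorted and had group means of 96.1 CPM in gESC_3d, 101 in gESC_10d, 47.5 in ISC_medium, 25.6 in eESC_10d, 19.7 in eESC_3d and 14.8 in ISC_high. It was thus above its unsorted level in gESC and below it in the other populations, while the second contig was scarce in all 6. The stem c24110_g1 was also 1 of the 7. Its leading unsorted contig, c24110_g1_i01, was at 2278 and 2826 CPM unsorted, with group means of 64.4 CPM in gESC_3d and 119 in gESC_10d. Its contig c24110_g1_i02 was at 97.6 and 110 CPM unsorted and higher in these groups, at 259 and 159 CPM. Its leading sorted contig, c24110_g1_i04, was at 378 and 416 CPM unsorted and at 313 and 253 CPM there. Counting could have divided reads between contigs of a stem, so values of single contigs are less certain than stem sums. Another 8 members fell in 4 pairs that shared an assembly component, each pair within the gastrodermal set. In c25356 the stems differed in level and line ratio, with unsorted means of 2409 CPM for c25356_g1 and 24.5 CPM for c25356_g2 and line ratios of 3.15 and 0.904.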

How the data were processed

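Polyadenylated RNA of 22 Hydra libraries was measured, 2 unsorted and 20 sorted. The authors deposited raw counts per contig as whole numbers, and the submitters' processing notes name cutadapt 1.11, Salmon 0.7.2 and DESeq2. The transcriptome, its annotation and whether replicates were separate cultures are not given in the sources used here. A second deposited table of scaled counts was not used. From the counts, contigs were summed by stem, and CPM was taken on column totals. Contrasts between sorted groups used edgeR 4.0.16 in R 4.3.3 (quasi-likelihood F test, 1 mean per group, TMM scaling, filterByExpr with a minimum count of 10 and minimum total of 15), with Benjamini-Hochberg adjustment over 18288 stems and calls under 0.05. Standard errors are the log2 fold change over the square root of F. The procedure was tested on simulated data.

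The members and lists were chosen with earlier results of these data known. Grouping by the sorted group of highest median CPM was chosen after seeing the data. For 15 members it differs from a grouping by means. The gESC_3d list holds the 100 non-member stems with the highest ratio of the lowest gESC_3d library (at least 20 CPM) to the higher mean of eESC_3d and ISC_high plus 0.5 CPM.

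Stems named were the 10 members of highest ratio and the 10 of highest unsorted mean, those nearest the limit, the extremes of the line ratio, the most abundant of each group, and up to 3 called members per direction and comparison whose groups did not overlap. Others were picked after their values were seen, and some of the stems so named are left unprinted.

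Replicate pairs differed beyond sampling noise (chi-square per degree of freedom of 23.4 or more). Deviations of gESC_10d and ISC_high libraries of the same letter had correlations of 0.374, 0.244 and 0.142 for A to C. The highest correlations with another letter were 0.312, 0.182 and 0.372, so pairing by letter was not established. No source says what a letter marks. In gESC_10d against ISC_high, a fit with the letter as a block called 140 members (87.0%, against 62.7% of all stems). The fit without it called 144 (89.4%, against 64.2%). Alternatives were other scalings, filters and tools, the fit of only the groups compared, the block, a depth class term, other libraries for a contrast, and leaving out each replicate.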

Additional observations from a re-analysis of the deposited data

Results flagged for a closer look

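In groups of 4 libraries, a library was marked when its gap to the nearest other one exceeded 0.829 of the group's range (Dixon's test at 95%), which chance gives in about 1 of 20 groups. Replicate C of eESC_10d was marked for the share of counts in members, at 0.597% against 0.220 to 0.271% in the other replicates, and for the gastrodermal set, at 0.464%. Member by member, it stood apart as the highest library for 101 of 161. Replicate C of ISC_high was marked for the epidermal set, at 0.00576% against 0.00347 to 0.00356%. Replicate A of ISC_high stood apart as the highest library for 25 members, and took 0.0102% of its counts from the gESC_3d list, within the 0.00907 to 0.0309% of the other 3. Members share sources of variation, so these counts are not independent tests. How many other stems were marked in the same way was not counted, so neither count is read as a trait of the members.

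The difference between layers in the response to starvation time was called for 2 members without eESC_10d C, c12424_g1 and c20_g1, by edgeR's interaction term, and for 0 with all libraries. Both were higher at 10 days in eESC and not called between the times in gESC.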

How the results depend on the processing

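Counts of members called that moved by over 1.5 times are given here. Between eESC_10d and gESC_10d, 115 calls became 61 in a fit of only these groups (38.1% of members against 60.9% of all stems), and 63 to 146 without a single replicate (63 without gESC_10d A, 39.1% against 45.7%), so in these 2 fits the members fell below all stems. Between eESC_3d and gESC_3d, 117 became 74 to 113 without a replicate (74 without eESC_3d C, 46.0% against 43.4%). For eESC_10d against ISC_high, 142 became 56 when eESC_3d and ISC_medium took their place. Between the interstitial gates, 68 became 39 with a depth class term. For eESC_10d against eESC_3d, 14 became 7 with the replicate letter as a block (4.35% of members against 10.7% of all stems) and 0 with a depth class term. A fit of only the groups compared gave 22 (13.8% against 25.3%). Leaving out a replicate gave 5 (3.11% against 3.38%, without eESC_3d A) to 25 (15.6% against 9.61%, without eESC_10d C). Between gESC_10d and gESC_3d, 0 became 1 with DESeq2 and 0 to 3 without a replicate. The causes were not tested, though a fit of fewer groups or samples has fewer libraries behind its spread. In the other comparisons, correlations between libraries of the same letter ran from -0.375 (C of gESC_10d and gESC_3d) to 0.341 (A of eESC_10d and gESC_10d). The block gave 109 calls in eESC_10d against gESC_10d (67.7% of members against 50.2% of all stems) and 117 in eESC_3d against gESC_3d (72.7% against 48.7%). It gave 141 in eESC_10d against ISC_high (87.6% against 69.5%) and 67 in ISC_medium against ISC_high (41.6% against 32.4%).

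Of 378 repeats of 27 named differences, 363 kept direction and call, 15 kept direction only and 0 reversed, and 18 differences kept both in all repeats. Fits in which a stem did not pass the filter, such as c27838_g1 without eESC_10d C, are not among the 378. The 27 were picked as the largest called differences in these same data, so these counts can overstate how firm they are. The depth class term rests on gESC_3d C alone. Other rules kept 126 to 161 members, the fewest with the highest single sorted library as the ceiling. TMM or median-of-ratios scaling over all 22 libraries let 209 or 199 stems pass. A level under about 1 CPM rests on few reads, and this limits ISC_high most.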
